A study of Mus musculus with 6 samples.

Results

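The prostanoid pathway genes examined here are Ptgs1, Ptgs2, Ptgis, Ptges, Ptges2, Ptges3, Ptger4, Ptgir, Slco2a1 and Hpgd, 10 of the 24421 gene rows in the count table. They were taken by symbol for their roles in prostanoid synthesis, transport, breakdown and reception. Ptgs2 was chosen by its measured counts, which were lower in the knockout-labelled column of each same-numbered pair, so its difference between the groups is given as a description, with no test. The other genes were listed by function. RNA was sequenced from brain-derived endothelial cells of mice (vessel-lining cells), sorted by fluorescence. There were 3 libraries labelled Fli-1 knockout and 3 labelled WT, and in both groups the cells had shared a dish with a vascular niche for 6 days. Deletion of the Fli-1 alleles was induced with 4-OHT (4-hydroxytamoxifen, a ligand used to switch on tamoxifen-dependent Cre), and the labels give this treatment for both groups. The labels name no recombinase, promoter or deleted exon, and they do not say whether the libraries came from separate animals or cultures, so the p-values measure only the spread between these libraries, which may be technical.

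Prostanoids are lipid signals made from arachidonic acid, which phospholipases free from membranes. The cyclooxygenases Ptgs1, usually constitutive, and Ptgs2, which is rapidly induced, convert it to the intermediate PGH2. Terminal synthases then turn PGH2 into prostacyclin (Ptgis) or prostaglandin E2 (Ptges, Ptges2 and Ptges3). Endothelium is known as the main source of prostacyclin, which widens vessels and restrains platelets. Ptger4 and Ptgir are G-protein-coupled receptors for prostaglandin E2 and prostacyclin that raise cyclic AMP, Slco2a1 carries prostaglandins into cells, and Hpgd oxidises them to inactive products.

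Total counts lay between 17550185 and 21385951 per library. Fli1, which encodes the ETS-family transcription factor named in the labels, had 76.8, 111 and 77.4 CPM (the usual depth-normalised read count, here on TMM-adjusted totals) in knockout-labelled libraries and 45.3, 59.6 and 45.8 CPM in WT-labelled ones. Fli1 was therefore higher where the labels say it was deleted. Which exons were deleted is not given, and reads from exons outside the deletion count as well, so these values do not check the deletion. All directions below set knockout-labelled libraries against WT-labelled ones. All 17 endothelial markers averaged at least 10 CPM, and their summed level was 18700 to 20700 CPM in knockout-labelled libraries and 18400 to 19600 CPM in WT-labelled ones. Of 10 brain barrier markers, 6 averaged at least 1 CPM; Slc2a1 was abundant, at 389 to 580 CPM and 397 to 600 CPM, whereas Mfsd2a and Slco1c1 had 23 and 2 reads in knockout-labelled libraries and 14 and 0 in WT-labelled ones.

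Because Fli1 encodes an ETS factor, the 250 bases before the RefSeq start sites (GRCm38.p6) of Ptgs2, Ptgs1 and Ptger4 are shown. They are written 5′ to 3′ on the strand of the gene. These genes were chosen after their values were seen. Ptgs1 and Ptger4 shared an order of libraries in both groups, and Ptgs2 had another. Capitals mark the ETS core letters GGAA or their reverse complement TTCC. The Ptgs2 window is chr1:150099781-150100030, plus strand, that of Ptgs1 is chr2:36230176-36230425, plus strand, and that of Ptger4 is chr15:5244188-5244437, minus strand.
Ptgs2: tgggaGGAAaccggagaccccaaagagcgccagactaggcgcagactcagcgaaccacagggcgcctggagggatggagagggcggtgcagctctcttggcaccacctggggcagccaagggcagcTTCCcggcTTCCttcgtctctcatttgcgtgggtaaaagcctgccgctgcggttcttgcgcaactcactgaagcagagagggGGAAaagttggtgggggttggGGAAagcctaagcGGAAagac
Ptgs1: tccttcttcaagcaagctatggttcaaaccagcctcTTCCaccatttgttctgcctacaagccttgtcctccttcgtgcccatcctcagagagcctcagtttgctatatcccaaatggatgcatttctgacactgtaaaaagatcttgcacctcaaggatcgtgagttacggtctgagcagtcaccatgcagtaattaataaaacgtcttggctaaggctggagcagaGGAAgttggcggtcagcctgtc
Ptger4: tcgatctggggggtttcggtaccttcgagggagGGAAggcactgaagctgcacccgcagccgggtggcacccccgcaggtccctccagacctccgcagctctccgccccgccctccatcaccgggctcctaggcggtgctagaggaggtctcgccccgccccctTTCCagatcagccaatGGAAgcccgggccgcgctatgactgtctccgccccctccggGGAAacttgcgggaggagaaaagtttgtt
The core occurred 6 times in the Ptgs2 window, 2 times in that of Ptgs1 and 4 times in that of Ptger4, on both strands together. Of the 32851 promoters in the RefSeq table, 93.4% held it at least once in the same length and 8.7% at least 6 times. Promoters were found for 9 members, with 2 to 7 occurrences each, the most in Hpgd. Slco2a1, which shared the library order of Ptgs1 and Ptger4, had 2. Whether these numbers go with the levels was not tested. Other letters were searched on both strands. CACGTG (E-box), held by 6% of promoters, was found among these members only before Ptges2, and TATAAA, held by 12.4%, only before Slco2a1. GGGCGG (GC box), held by 32.7%, occurred once before Ptgs2, not before Ptgs1, and 4 times before Ptger4. TGACG (from the cyclic AMP response element), TTNNGCAAT (a C/EBP string, N being any base) and an NF-kB string were held by 17.8%, 1.9% and 1.4% of promoters. None of the 9 windows held an exact match to these strings, and near matches were not counted. The Ptgs2 window holds a stretch that differs from the C/EBP string only in its last letter. The search therefore does not show that the windows lack C/EBP, NF-kB or the other motifs. Bases outside the windows were not searched, so it does not show that a promoter lacks them either. The Ptgs2 window also overlaps in part an exon of Ptgs2os, a noncoding gene that starts at 150099963 and is transcribed from the opposite strand. These matches describe letters and not bound sites.

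The mRNA of Ptgs2 is known as short-lived, and AU-rich elements after its coding region contribute to this. In the GENCODE M21 transcript, the 3′ UTR of 2445 bases held 14 ATTTA pentamers, 5.73 per kilobase, a density reached by 3.24% of 17265 genes with a 3′ UTR of at least 300 bases. The stretch with the most pentamers, bases 12 to 41 of the 3′ UTR, is shown with the pentamers in capitals.
Ptgs2 3′ UTR: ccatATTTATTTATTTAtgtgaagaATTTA
Hpgd had 4 pentamers in 838 bases, Ptger4 had 5 in 1233 and Ptges3 had 4 in 1186. Ptges2 had 4 in 3444, Ptgir 2 in 1791 and Slco2a1 4 in 4572, and Ptgs1, Ptgis and Ptges had 0. Over all these genes the median density was 1.44 per kilobase.

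Ptgs2 (ENSMUSG00000032487, GRCm38 chromosome 1, 150100031 to 150108227, plus strand) had 230, 215 and 413 CPM in knockout-labelled libraries 1, 2 and 3, and 407, 373 and 605 CPM in WT-labelled ones 1, 2 and 3. Within each same-numbered pair the library labelled knockout was the lower one, but the groups overlapped, since library 3 labelled knockout stood above libraries 1 and 2 labelled WT. Ptgs2 averaged 286 ± 110 CPM in knockout-labelled libraries and 462 ± 125 CPM in WT-labelled ones (SD, n = 3 each). The ratio within a pair was 0.566, 0.577 and 0.683, and the fold change from a fit with replicate number as a block was 0.607, a log2 value of -0.72. These values chose the gene and were not tested. Of all 12753 genes tested, 20.2% were lower in the library labelled knockout in all 3 pairs. In a bulk sample, fewer cells that express a gene and less RNA per cell cannot be told apart. The number of reads behind these values was 4019 to 7132 per library labelled knockout and 7845 to 11863 per library labelled WT, so counting error was small beside the spread between libraries.

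**Figure D1:**
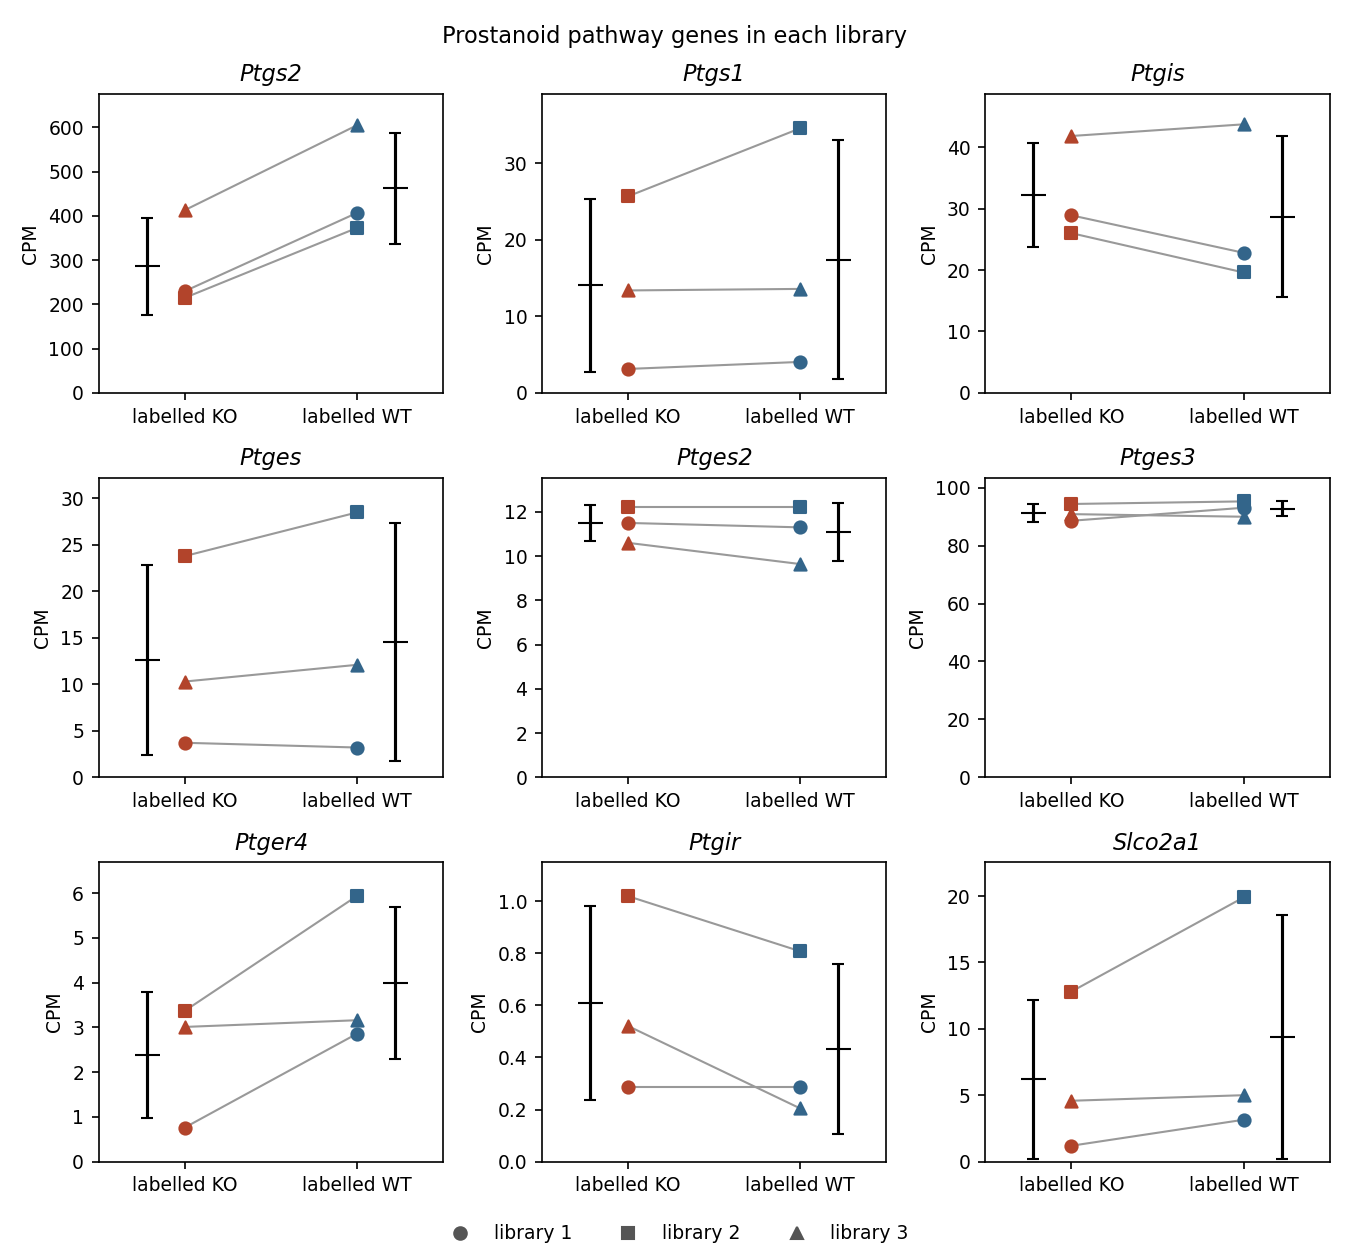
Normalised level (CPM) of 9 members in each library; grey lines join same-numbered libraries, and black bars give mean and SD over 3 libraries. Ptgs2 was lower in the library labelled knockout in all 3 pairs (230, 215 and 413 against 407, 373 and 605 CPM), whereas Ptges3 stayed between 88.6 and 95.3 CPM in every library.

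The noncoding RNA Ptgs2os starts beside Ptgs2, 0.068 kb away, and is transcribed in the opposite direction. It had 0.809, 1.23 and 1.74 CPM in knockout-labelled libraries and 1.91, 2.28 and 2.24 CPM in WT-labelled ones, from 17 to 30 reads and 40 to 48 reads per library. The groups did not overlap, as held for 4.96% of all genes tested in this direction. With replicate number as a block its log2 fold change was -0.79 ± 0.25 (SE), with an edgeR adjusted p of 0.0382; the call was lost with DESeq2 in the same design (adjusted p = 0.512) and without pair 1 or pair 2 (adjusted p = 0.227 and 0.184). It shares no exon with Ptgs2 in GENCODE M21, but the strand setting of the counting is not given in the sources used here, so reads near the shared start may belong to either gene.

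Pla2g4a, the next gene on that side at 139 kb, encodes the cytosolic phospholipase that frees arachidonic acid. It had 27.8, 30.3 and 46.4 CPM in knockout-labelled libraries and 34.3, 32.9 and 46.7 CPM in WT-labelled ones. Both groups had their highest value in library 3, as Ptgs2 did, and the log2 fold change of -0.14 did not pass (95% interval -0.27 to -0.01, edgeR adjusted p = 0.2 with the block). Ptgs2os2, a noncoding RNA 50.8 kb away on the other side, had 17 reads in the knockout-labelled libraries together and 39 in the WT-labelled ones together, and did not pass (adjusted p = 0.209, edgeR with the block).

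The level of each gene per kilobase of exon allowed the members to be ranked. Ptgs2 came first, at 62.5 ± 24.1 CPM per kilobase in knockout-labelled libraries and 101 ± 27.4 in WT-labelled ones (SD, n = 3). Ptges3, a cochaperone also described as a prostaglandin E synthase, followed at 41.2 ± 1.33 and 41.9 ± 1.19 CPM per kilobase, below Ptgs2 in each of the 6 libraries. Ptgis followed at 12.6 ± 3.27 and 11.2 ± 5.09 CPM per kilobase and had the highest mean of the other terminal synthases among the members. Gstm2, a synthase gene outside the members, averaged 24.8 CPM per kilobase over the 6 libraries, above the 11.9 of Ptgis. The ranges of Ptgis and Ptgs1, of Ptgs1 and Ptges, and of Ptges and Ptges2 overlapped, so their order rests on the means alone. Slco2a1, Ptger4 and Ptgir averaged 0.574, 0.479 and 0.156 CPM per kilobase over the 6 libraries. Hpgd had 2 reads over the knockout-labelled libraries and 3 over the WT-labelled ones, too few to be tested or compared.

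**Figure D2:**
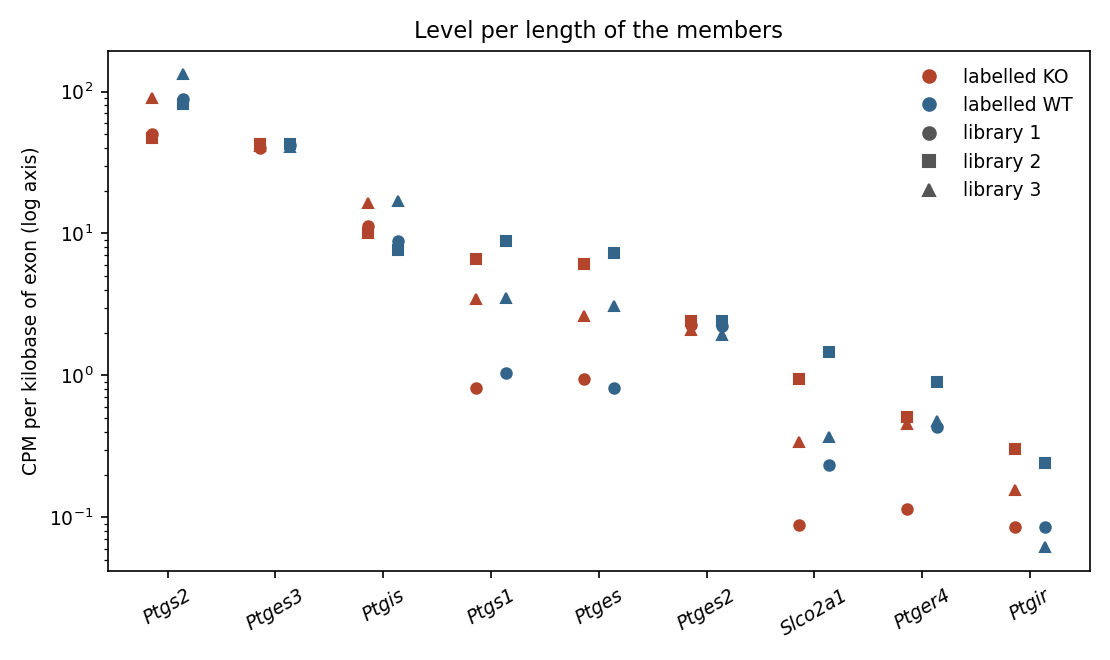
CPM per kilobase of GENCODE M21 exon on a log axis, by library, for 9 members in order of their mean. Ptgs2 and Ptges3 stood above the rest in every library, and the points of Ptgs1, Ptges and Slco2a1 spread widely by library number in both groups.

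Ptgs1 (chromosome 2, 36230426 to 36252272) differed more between library numbers than between the groups. It had 3.14, 25.7 and 13.4 CPM in libraries 1, 2 and 3 labelled knockout and 4.06, 34.6 and 13.6 CPM in libraries 1, 2 and 3 labelled WT. Library 2 was the highest and library 1 the lowest in both groups, and the lowest and highest of the 6 libraries were 11-fold apart. Per kilobase, Ptgs2 exceeded Ptgs1 by 62.2-, 7.09- and 26.2-fold in knockout-labelled libraries and by 85.1-, 9.14- and 37.7-fold in WT-labelled ones. Ptgs1 was lower in the library labelled knockout in each pair, with a log2 fold change of -0.28 (95% interval -0.48 to -0.09), and did not pass with the block (edgeR adjusted p = 0.0592). It passed in that design without pair 1 and without pair 3 (adjusted p = 0.04 and 0.0061), with limma-voom and with scaling by library size alone. It did not pass without pair 2, where the log2 fold change was -0.14 (adjusted p = 0.797), or with DESeq2 in that design (adjusted p = 0.63).

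Ptgis, the prostacyclin synthase (chromosome 2, 167191805 to 167240604), had 28.9, 26 and 41.8 CPM in knockout-labelled libraries and 22.8, 19.6 and 43.7 CPM in WT-labelled ones. As for Ptgs2, library 3 was the highest and library 2 the lowest in both groups. Its difference between the groups had the opposite sign to that of Ptgs2 in pairs 1 and 2 (log2 ratios 0.34 and 0.41) and was -0.06 in pair 3. The log2 fold change of 0.20 (95% interval 0.05 to 0.36) did not pass with the block (edgeR adjusted p = 0.1), but did without pair 3 (0.37, adjusted p = 0.000819).

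Of the prostaglandin E2 synthases, Ptges, the inducible microsomal enzyme, varied with library number as Ptgs1 did. It had 3.71, 23.8 and 10.3 CPM in knockout-labelled libraries and 3.2, 28.5 and 12.1 CPM in WT-labelled ones. Its log2 fold change of -0.18 (95% interval -0.38 to 0.02) did not pass (edgeR adjusted p = 0.318 with the block). Ptges2, a membrane-associated synthase, lay between 10.6 and 12.2 CPM in knockout-labelled libraries and between 9.64 and 12.2 CPM in WT-labelled ones. Ptges3 lay between 88.6 and 94.4 CPM and between 90 and 95.3 CPM. For these last 2 genes the 95% intervals of the log2 fold change with the block were -0.15 to 0.25 and -0.12 to 0.07. Neither passed a test (edgeR adjusted p = 0.831 and 0.829).

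Slco2a1, the prostaglandin transporter (chromosome 9, 102988712 to 103096002), had 1.19, 12.8 and 4.58 CPM in libraries 1, 2 and 3 labelled knockout and 3.15, 19.9 and 5 CPM in libraries 1, 2 and 3 labelled WT. The library labelled knockout was lower in each pair, with log2 ratios of -1.41, -0.63 and -0.13, while the values of library 2 exceeded those of library 1 in both groups. With the block Slco2a1 fell by 0.61 ± 0.14 on the log2 scale (SE; edgeR adjusted p = 0.0033). The call was lost without pair 2 (-0.59, adjusted p = 0.121) and with DESeq2 in the same design (-0.65, adjusted p = 0.124).

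Ptger4, the EP4 receptor (chromosome 15, 5206661 to 5244187), had 0.761, 3.37 and 3.01 CPM in knockout-labelled libraries and 2.86, 5.94 and 3.16 CPM in WT-labelled ones. These values rest on 16, 63 and 52 reads and on 60, 125 and 62 reads. It was lower in each pair, most of all in pair 1 (log2 ratio -1.91) and least in pair 3 (-0.07). With the block it fell by 0.79 ± 0.22 on the log2 scale (SE; edgeR adjusted p = 0.0227). The fall no longer passed without pair 1 (-0.50, adjusted p = 0.115), without pair 2 (-0.78, adjusted p = 0.0583) or with DESeq2 (-0.87, adjusted p = 0.231). Ptgir, the prostacyclin receptor, had 6, 19 and 9 reads in knockout-labelled libraries and 6, 17 and 4 in WT-labelled ones; its 95% interval of -0.41 to 1.36 (log2, with the block) leaves its direction undetermined at this depth.

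Compared as groups with no block, 0 of the 8 tested members other than Ptgs2 passed in edgeR, where 0.00784% of all genes tested were called. The unadjusted p was under 0.05 for 0 of these 8 and for 611 of the 12753 genes tested, and DESeq2 and limma-voom also called 0. With replicate number as a block, 0 rose, 2 fell and 6 did not pass, while 8.81% of all genes tested were called, 4.81% higher and 4.01% lower. Without pair 2, 0 of 7 tested members passed, while 4.28% of all genes were called, 2.66% higher and 1.61% lower. Without pair 1, 0 rose and 2 fell, beside 8.8% of all genes called, 4.69% higher and 4.1% lower. Without pair 3, 1 rose and 3 fell, beside 8.97% of all genes, 4.33% higher and 4.64% lower. Of these 8, Ptgs1, Ptger4 and Slco2a1 were lower in the knockout-labelled library of all 3 pairs and Ptges2 was higher, where 20.2% and 20.5% of all genes were. The groups overlapped for each of the 8, whereas they did not overlap for 10.2% of all genes, 5.25% higher and 4.96% lower. The median log2 fold change of the 8 members with the block was -0.10, beside -0.003 over all genes tested.

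**Figure D3:**
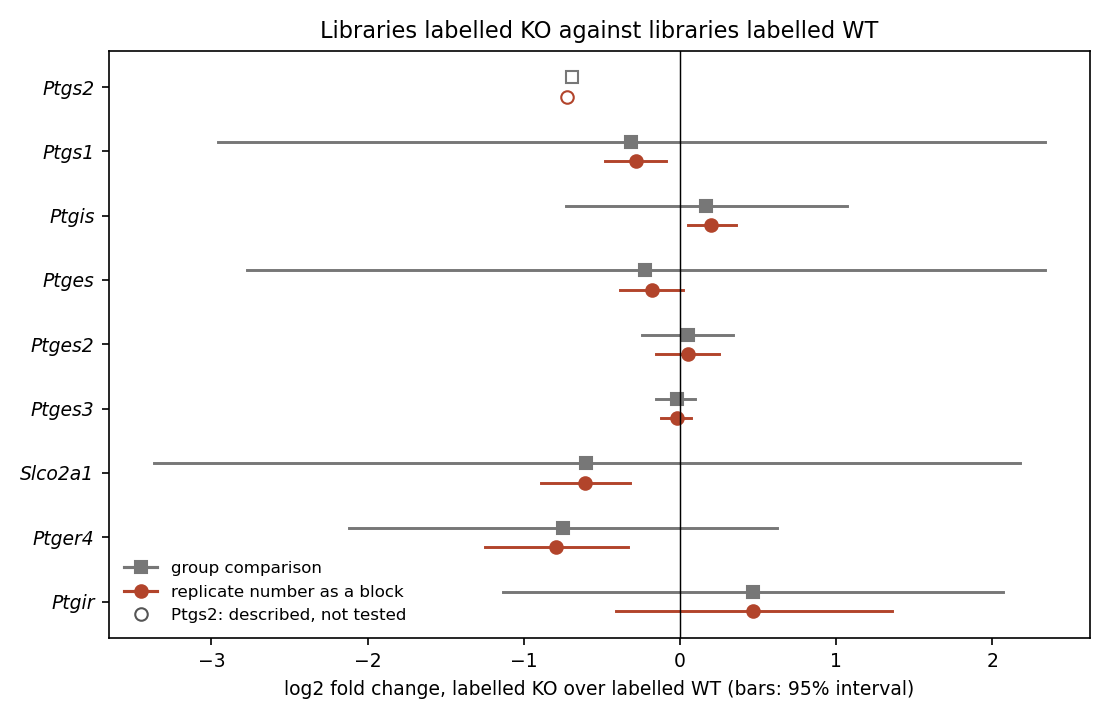
Log2 fold changes (libraries labelled knockout over those labelled WT) of the 9 tested members, with 95% intervals; squares give the group comparison, circles the fit with replicate number as a block, and the open symbols of Ptgs2 carry no test. The interval of Slco2a1 was -0.89 to -0.32 with the block and -3.37 to 2.18 without it, and those of Ptges2 and Ptges3 spanned 0 in both.

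Fibroblast transcripts varied with library number in the same order as several members. The summed level of 13 fibroblast markers was 202, 1420 and 645 CPM in libraries 1, 2 and 3 labelled knockout and 279, 2020 and 705 CPM in libraries 1, 2 and 3 labelled WT. The 3 libraries of each group thus stood in the same order for this sum as for Ptgs1, Ptges, Slco2a1 and Ptger4. Within pairs the fibroblast sum had log2 ratios of -0.47, -0.51 and -0.13, so it too was lower in the library labelled knockout. Of the 13 fibroblast markers 10 averaged at least 1 CPM and none was at 0 in all libraries. With the block 1 of 10 tested rose and 4 fell, where 4.81% of all genes tested were called higher and 4.01% lower. In that design 3 of 17 endothelial markers rose and 1 fell, and 1 of 7 tested brain barrier markers rose and 0 fell. The 13 mural cell markers summed to 1450, 1890 and 1900 CPM and to 1430, 2260 and 1600 CPM, with 3 of 10 tested markers lower and 0 higher. Of 15 blood cell markers 4 averaged at least 1 CPM, 1 of 4 tested rose and 0 fell, and Tyrobp, C1qa, C1qb, Cd3e and Spi1 were at 0 in all libraries. Their sum was 159 to 236 CPM in knockout-labelled libraries and 132 to 196 CPM in WT-labelled ones, nearly all of it from Laptm5. Of 13 neural markers 3 averaged at least 1 CPM, and Aqp4 and Olig2 were at 0. The part of these cell types in the levels of Ptgs1, Ptges, Slco2a1 and Ptger4 was not tested. Ptgs2 and Ptgis were lowest in library 2 of each group.

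**Figure D4:**
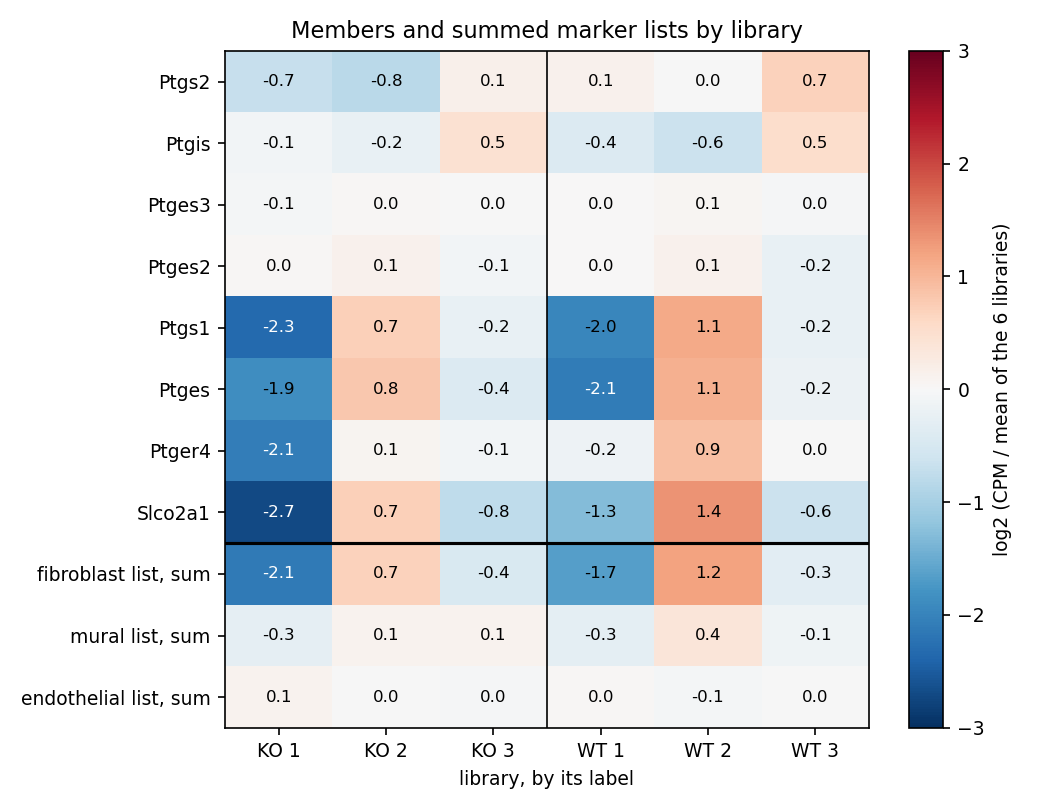
Level of 8 members and of the summed marker lists in each library, as log2 of the CPM over the mean of the 6 libraries. Ptgs1, Ptges, Slco2a1 and Ptger4 were lowest in library 1 and highest in library 2 of both groups, like the fibroblast sum (202, 1420 and 645 against 279, 2020 and 705 CPM), whereas Ptgs2 and Ptgis were highest in library 3.

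Around the members, 45 further genes of prostanoid metabolism and reception were listed by function, of which 26 were tested. With the block 0 rose, 1 fell and 25 missed the threshold, beside 8.81% of all genes called; the median log2 fold change was 0.02. In the release of arachidonic acid, 0 of 11 tested genes passed in either direction: the lipase gene Pnpla2 had 148 to 169 CPM and 151 to 164 CPM, and Acsl4, which activates arachidonic acid for storage in phospholipids, had 116 to 133 CPM and 125 to 140 CPM. The calcium-independent phospholipase gene Pla2g6 had a log2 fold change of -0.11 (edgeR adjusted p = 0.203 with the block).

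Among 5 tested other synthases 0 passed; the most abundant were Gstm2, at 43 ± 8.2 CPM in knockout-labelled libraries and 40.3 ± 4.63 CPM in WT-labelled ones, and Cbr1, at 24.9 ± 2.08 and 27.1 ± 1 CPM (SD, n = 3). Tbxas1, the thromboxane synthase, had 7 reads in knockout-labelled libraries and 5 in WT-labelled ones. Of 4 tested other receptor genes 0 passed. Tbxa2r, the thromboxane receptor, was again highest in library 2, with 0.19, 2.03 and 0.116 CPM and 0.668, 3.04 and 0.204 CPM. Ptgfrn, which encodes a partner protein of the prostaglandin F receptor, had 26.9 ± 6.8 and 26.6 ± 6.53 CPM. In export and breakdown, Slco4a1, an organic anion transporter gene, fell to 58.8, 45.9 and 77.3 CPM in knockout-labelled libraries, against 73.8, 48.5 and 88.5 CPM in WT-labelled ones, by 0.21 ± 0.053 on the log2 scale (SE; edgeR adjusted p = 0.00699). This call was lost without pair 1 (adjusted p = 0.125) and with DESeq2 in the same design (adjusted p = 0.191). Abcc4, which exports prostaglandin E2, had 61.2, 72 and 62.7 CPM against 57.5, 65.3 and 57 CPM and did not pass (log2 0.12, edgeR adjusted p = 0.139).

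Other uses of arachidonic acid and signals below the receptors were listed as well; with the block, 8.81% of all genes tested were called. Of 12 tested genes of the lipoxygenase, leukotriene and epoxygenase branches, 0 rose and 1 fell. That gene was Cyp1b1, a cytochrome P450 gene, at 1.95, 49.2 and 16.9 CPM in knockout-labelled libraries and 3.34, 66.9 and 18.5 CPM in WT-labelled ones. It again followed the library order of the fibroblast sum, and its fall of 0.37 with the block was lost without pair 2 (-0.28, edgeR adjusted p = 0.376) and with DESeq2 (adjusted p = 0.121). Of 25 tested genes of cyclic AMP signalling, 1 rose and 0 fell. Rgs2, a regulator of G-protein signalling, rose to 11.8, 10.5 and 16.6 CPM in knockout-labelled libraries, against 9.83, 8.55 and 12.6 CPM in WT-labelled ones, by 0.32 ± 0.098 (SE; edgeR adjusted p = 0.0303 with the block). Leaving out any 1 pair, or using DESeq2, ended that call (adjusted p between 0.0549 and 0.481). The early cyclic AMP response genes Nr4a1 and Nr4a2 did not pass, with log2 fold changes of -0.17 and 0.47.

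Transcription factors listed for a known or possible action on Ptgs2 are given next to proteins that bind AU-rich mRNA. The list holds Fli1, the gene named in the labels, and whether Fli1 acts on Ptgs2 was not tested. Of 27 tested transcription factors 2 rose, 7 fell and 18 did not pass with the block, where 4.81% of all genes tested were called higher and 4.01% lower. Junb, a subunit of AP-1, fell to 44.9, 64.4 and 49.3 CPM in knockout-labelled libraries, against 58.5, 85.6 and 74.9 CPM in WT-labelled ones (log2 -0.46 ± 0.053 SE, edgeR adjusted p = 1.54e-08). Egr1 and Fos fell by 0.86 and 0.93, with groups that did not overlap. The groups also did not overlap for Fli1, Ets2, Zfp36 and Tia1, given below. Of all genes tested, 4.96% had groups that did not overlap in the lower direction and 5.25% in the higher. The genes named here were picked because they passed in these same libraries. Their lack of overlap is therefore no separate evidence and gives no share for the lists. Cebpd fell by 0.42 with the block but was higher in pair 1 (log2 ratio 0.10), and it no longer passed without pair 2 (edgeR adjusted p = 0.121) or with DESeq2 (0.688); 15% of its exon bases overlap Spidr on the opposite strand. Without pair 2 the list had 1 gene higher and 4 lower, beside 2.66% and 1.61% of all genes. Ets2 fell by 0.24, and Fli1 and Relb, a subunit of NF-kB, rose by 0.81 and 0.18 on the log2 scale. The NF-kB subunit genes Nfkb1 and Rela did not pass, at log2 0.06 and 0.09. Of 13 AU-rich element binding genes, 0 rose and 2 fell. Zfp36, whose protein speeds the decay of such mRNAs, had 15.5, 20.7 and 16.2 CPM in knockout-labelled libraries and 23.8, 27.8 and 20.8 CPM in WT-labelled ones, and fell by 0.47 ± 0.079 (SE; edgeR adjusted p = 3.26e-05). Tia1, a translational silencer, fell by 0.18, a call lost without pair 1, without pair 2 and with DESeq2 (adjusted p = 0.148, 0.239 and 0.327). Compared as groups with no block, edgeR and limma-voom called 0 of the genes of both lists named above, while DESeq2 called Fli1, Egr1, Fos and Ets2 (adjusted p = 0.0068, 7.06e-08, 0.000165 and 0.0477).

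Inflammatory genes that are often induced together with Ptgs2 moved in both directions. Of 17 tested, 4 rose, 2 fell and 11 did not pass with the block, where 4.81% of all genes tested were called higher and 4.01% lower. Without pair 2 the counts were 4 and 2, beside 2.66% and 1.61% of all genes. Compared as groups with no block, edgeR called 0 of the 17 in either direction. Sele, the leukocyte adhesion molecule E-selectin, rose to 7.57, 17.2 and 11.8 CPM in knockout-labelled libraries, against 4.39, 12.9 and 6.53 CPM in WT-labelled ones, by 0.65 ± 0.11 (SE; edgeR adjusted p = 4.56e-05). Icam1 and Vcam1, which also bind leukocytes, rose by 0.32 and 0.28. Nos2, the inducible nitric oxide synthase, fell by 0.25 and the chemokine gene Cxcl1 by 0.29. Both of these calls were lost without pair 1 (edgeR adjusted p = 0.0523 for Nos2 and 0.0799 for Cxcl1) and with DESeq2 (0.211 and 0.104). Il6 was not called, with 0.571, 2.41 and 2.78 CPM against 1.38, 7.74 and 2.45 CPM. Of the 4 genes that rose, only Vcam1 had groups that did not overlap, as held for 5.25% of all genes tested in this direction.

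**Figure D5:**
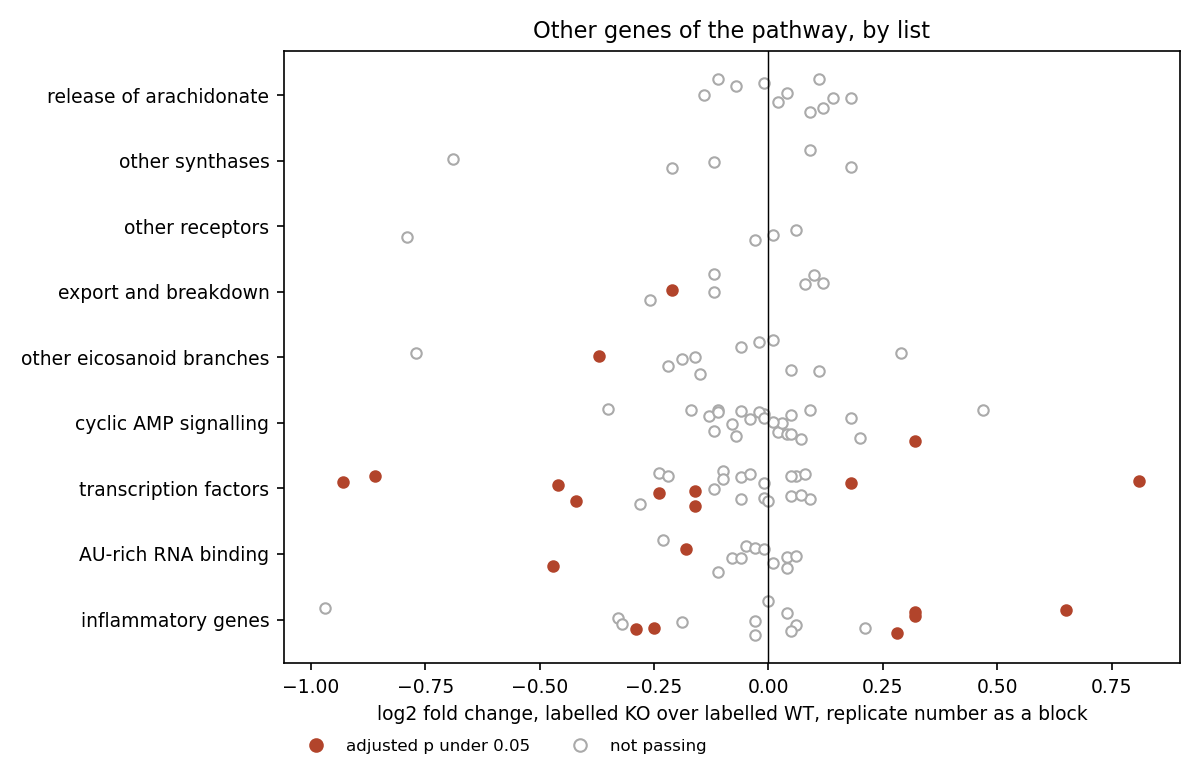
Log2 fold changes with replicate number as a block for the tested genes of each list; filled points passed an adjusted p of 0.05, and vertical scatter within a list carries no meaning. In the 4 lists of prostanoid release, synthesis, reception, export and breakdown 1 of 26 genes passed, where 8.81% of all genes tested did; differences between lists were not tested.

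The genes whose levels were most like those of Ptgs2 over the 6 libraries, among 8985 others averaging at least 10 CPM, were Ptpmt1, Pml, Hexim1, Hpn and Hist1h2bc, with Pearson r of log2 CPM between 0.97 and 0.978. Their own spread was small: the lowest and highest libraries were 1.22-fold apart for Ptpmt1 and 1.06-fold for Hexim1, against 2.82-fold for Ptgs2. The 6 libraries share group and replicate number, so r describes only this order of libraries. Among the members, r with Ptgs2 was 0.44 for Ptgis, 0.09 for Ptgs1 and -0.78 for Ptges2.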

How the data were processed

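The deposited table holds raw read counts per gene symbol, not normalised by the authors, in 6 columns matched to the samples by library name. Per the submitters' processing notes, the builds were GRCm38 and mm10 and the tools featureCounts (Subread 1.6.4), STAR 2.6.1d, Trim Galore 0.6.4 and FastQC 0.11.8. For annotation, strand setting and multi-mapped reads, the choice is not given in the sources used here.

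Counts were analysed with R 4.3.3 and edgeR 4.0.16: genes passing filterByExpr (12753), TMM factors of 0.983 to 1.0241, robust quasi-likelihood F test, Benjamini-Hochberg adjustment over all genes tested at 0.05. Standard errors were the log2 fold change over the root of F. The designed comparison has no block. Same-numbered libraries deviated together from their group means (r = 0.76, 0.845 and 0.636), so the numbers were taken to pair them, from the data and not the labels; with the block 2 residual degrees of freedom remained and the biological coefficient of variation was 0.0383, against 0.189 with no block. An exact permutation test could not go below 0.1 (3 against 3) or 0.25 (3 pairs). Small paired p-values therefore rest on a spread pooled across genes. Every pair of libraries differed beyond counting noise (lowest chi-square over its degrees of freedom 5.68). The fits were tested on simulated data. DESeq2 1.42.0, limma-voom (limma 3.58.1), other scalings, no filter and left-out libraries or pairs were alternatives. Gene symbols, exon lengths and 3′ UTRs came from GENCODE M21 (95.5% of rows matched).

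Members and lists were chosen with earlier results of these data known. Named genes were all members, genes of each list that passed (at most 6) or else its 2 most abundant, the neighbours of Ptgs2 and the 5 most like it; Tbxas1, Tbxa2r, Abcc4, Pla2g6, Nr4a1, Nr4a2, Nfkb1, Rela, Relb and Il6 were added after their values were seen. Values of 1 gene that the rule names among the inflammatory genes are not reported here, though the list counts include it.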

Additional observations from a re-analysis of the deposited data

How the results depend on the processing

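All alternatives were planned. Genes called without the block were 0 higher and 1 lower; DESeq2 gave 12 and 7, limma-voom and an adjusted p of 0.01 gave 0 lower, and leaving out 1 library gave 0 to 1 lower. The replicate block gave 613 higher and 511 lower, 262 and 111 with DESeq2, 601 and 507 with limma-voom, and 471 and 734 with library size alone; leaving out pair 1, 2 or 3 gave 603, 339 and 560 higher and 527, 205 and 600 lower. Members other than Ptgs2 were 0 and 0 without the block. The replicate block called 2 lower, 3 with limma-voom, 3 with library size alone and 0 with DESeq2; leaving out a pair gave 0 to 3 lower and 0 to 1 higher. The 120 other listed genes tested gave 0 and 0 without the block, 1 and 3 with DESeq2, and 7 higher and 13 lower with the replicate block. That design gave 5 and 5 with DESeq2, 7 and 14 with limma-voom and 6 and 16 with library size alone, and 5 to 6 and 8 to 13 when a pair was left out. The cause was not tested. The block changed the calls of the named genes given above as rising or falling.

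Ptgs2 was lower under all 18 alternatives (log2 -1.05 to -0.45). These are refits of the counts that chose the gene, so they are no test of its fall. Leaving out 1 library without the block turned the direction of Ptgs1 (-1.09 to 0.67), Ptgis (-0.06 to 0.60), Ptges (-1.07 to 0.71), Ptges2 (-0.04 to 0.12), Ptgir (-0.12 to 1.27), Slco2a1 (-1.71 to 0.60), Pnpla2 (-0.05 to 0.04), Gstm2 (-0.06 to 0.22), Ptger1 (-0.11 to 0.04, with reads that are uncertain without the strand setting), Ptgfrn (-0.19 to 0.23), Cyp1b1 (-1.67 to 1.05), Cebpd (-0.98 to 0.14) and Pla2g4a (-0.39 to 0.05). None of these genes passed in a fit without the block. Ptgfrn was also -0.01 with library size alone, with and without the block. With the block, leaving out pair 3 gave 0.02 for Ptger1 and 0.01 for Pnpla2, and leaving out pair 1 gave -0.03 for Ptgfrn. Depth limits Ptgir, Ptger4, Ptgs2os and Hpgd.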
